A study of Mus musculus with 79 samples.

Results

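Nos1, the neuronal nitric oxide synthase, was described with 7 genes that act beside it or downstream of it, which makes 8 of the 55335 genes in a table of RNA counts from sorted nuclei of mouse visual cortex. The 8 genes are Nos1, its adaptor Nos1ap, the guanylyl cyclase subunits Gucy1a1, Gucy1a2 and Gucy1b1, the cGMP-dependent kinases Prkg1 and Prkg2, and the phosphodiesterase Pde5a. They were listed by symbol, and all 8 were found in the table. Nos1 was chosen by measured values, its counts in transduced neurons with working against mutant Kir2.1, so its values in that comparison, and those of its partners there, are given as a description with no test.

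Nitric oxide is a gas that Nos1 makes from arginine when calcium enters a neuron, often close to NMDA receptors, and it leaves the cell that made it. In the receiving cell it binds the heme of a cyclase built from an alpha and a beta subunit, which makes cGMP. cGMP opens or modulates channels and activates the Prkg kinases until phosphodiesterases such as Pde5a break it down. In cortex, high Nos1 is known as a mark of a sparse class of long-range inhibitory neurons that also make Sst, Npy and Chodl.

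The study asked what activity remains in visual cortex during dark housing, and silenced neurons with Kir2.1, an inward-rectifying potassium channel encoded by Kcnj2. The 79 libraries form 10 groups, and every mouse was heterozygous for a pair of knock-in alleles (INTACT wt/ki and VIP Cre wt/ki), so that Cre from the Vip gene tags nuclei of VIP interneurons. Mice were injected at P55 to P60, entered the dark 3 days later and stayed there 10 to 12 days; every library is labelled as 10 days dark housed. The protocol shared by all samples allows for tissue taken in darkness or following 1 h of light, and the labels do not say which applied to any library. AAV-Syn1-Kir2.1-2a-mScarlet-KASH, called the Kir2.1 vector below, gave 10 libraries of transduced VIP nuclei, 8 of transduced neurons, 10 of non-transduced VIP nuclei and 10 of all non-transduced nuclei. The mutant vector, of the same build with Kir2.1(Mutant) in place of the working channel, gave 9, 8, 9 and 9 in the same order. Uninjected mice, of the same genotype and housing, contributed 3 VIP libraries and 3 from all nuclei. The Syn1 promoter drives the vectors in neurons in general. Each library held RNA from 50 to 100 sorted nuclei amplified over 17 PCR cycles.

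The libraries held 3219899 to 9267246 counts, with a median of 6170915. Kcnj2, which the vectors carry, had group means of 415 to 776 CPM (counts scaled to the library's size) in the 4 transduced groups and of 5.59 to 33.0 CPM in the other 6, and the count does not tell the working from the mutant channel. The group means followed the labels, but 1 library of all non-transduced nuclei with Kir2.1 reached 149 CPM of Kcnj2, within the range of the transduced libraries (lowest 138). Vip itself had group means of 1634 to 5276 CPM in the 5 VIP groups and of at most 9.54 CPM in the others. The excitatory marker Slc17a7 had means of 47.1 to 68.3 CPM in the neuron and all-nuclei groups and of at most 6.28 CPM in the VIP groups. The sex label went against Xist and Y-linked genes in 32 of the 79 libraries, and 6 libraries had a profile that stood apart from their group (numbers 1 and 6 of transduced VIP nuclei with Kir2.1, 9 of non-transduced VIP nuclei with Kir2.1, 10 of Kir2.1 neurons, and 1 of each mutant VIP group). Samples numbered as biological replicates are taken as separate samples; the labels do not say which came from 1 animal, and p-values measure the spread between these samples. By Xist and Y-linked genes, all 22 sets of libraries that share a vector and a number held 1 sex each, which is a hint from the data, not the design, that a number may mark an animal. The tests took the libraries as unpaired, and a fit with the number as a block was the alternative. For transduction, the interaction and the populations the block was the vector and number together. For vectors and injection it was the number alone, which joins libraries of different vectors and does not stand for an animal. In libraries of pooled nuclei, fewer nuclei that express a gene and less RNA per nucleus cannot be told apart.

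On GRCm38, Nos1 (ENSMUSG00000029361) lies on the plus strand at chr5:117781032-117958840, and Nos1ap (ENSMUSG00000038473) on the minus strand at chr1:170302668-170589861. The cyclase genes Gucy1a1 (ENSMUSG00000033910, chr3:82092427-82145789) and Gucy1b1 (ENSMUSG00000028005, chr3:82032006-82074689) are neighbours on the minus strand with 17737 bases between them. Gucy1a2 (ENSMUSG00000041624) is on the plus strand at chr9:3532778-3894736. Prkg1 (ENSMUSG00000052920, minus strand, chr19:30564489-31765033) spans 1200545 bases, and Prkg2 (ENSMUSG00000029334, minus strand) lies at chr5:98929773-99037351. Pde5a (ENSMUSG00000053965) is on the plus strand at chr3:122728947-122859374. All 8 are protein-coding genes in GENCODE vM21.

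Nos1 is transcribed from several first exons, so the sequence before its listed start was read before it was used as a promoter. The start that RefSeq (GRCm38.p6) lists, base 117866839, is the first base of an internal exon in 4 of the 7 GENCODE transcripts of Nos1. The 50 bases before it, chr5:117866789-117866838 on the plus strand, are shown because they have the letters of an intron's end: 44 of the first 48 are C or T, and the last 2, in capitals, are AG.
Nos1, 50 bases before the RefSeq start: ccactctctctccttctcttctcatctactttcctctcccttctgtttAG
No promoter of Nos1 is therefore printed, and the gene counts do not tell which first exon was used.

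In transduced neurons, Nos1 was at 71.7 to 136 CPM in the 8 Kir2.1 libraries, with a median of 90.1 and a mean of 92.4 ± 20.1 (SD, n = 8). In the 8 mutant libraries it was at 4.96 to 23.0 CPM, with a median of 11.1 and a mean of 11.5 ± 6.32 (SD, n = 8). All 8 Kir2.1 libraries lay above all 8 mutant libraries, and the fitted difference was 3.08 on the log2 scale. The ratio of the means was 8.04, and 7.49 without Kir2.1 library 10, which was the highest at 136 CPM and has a profile that stands apart. This is the contrast that chose the gene.

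No other group reached this level. The 71 libraries outside the Kir2.1 neuron group had a mean of 17.6 ± 9.51 CPM (SD) and a maximum of 50.9 CPM, in number 8 of the transduced VIP nuclei with Kir2.1. In order of their means, the next groups were transduced VIP nuclei with Kir2.1 at 25.2 ± 14.4 CPM (n = 10), all non-transduced nuclei with Kir2.1 at 21.0 ± 6.88 (n = 10) and non-transduced VIP nuclei with Kir2.1 at 18.1 ± 8.80 (n = 10). All nuclei without AAV followed at 18.1 ± 3.51 CPM (libraries at 20.9, 14.1 and 19.1), then mutant non-transduced VIP nuclei at 17.0 ± 8.02 (n = 9) and mutant transduced VIP nuclei at 16.5 ± 8.64 (n = 9). The lowest were all non-transduced mutant nuclei at 13.3 ± 8.85 CPM (n = 9), VIP nuclei without AAV at 12.6 ± 5.23 (7.87, 11.6 and 18.2) and the mutant neurons. From the second group to the last, each group overlapped the next in range and differed from it by less than 1 SD.

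**Figure D1:**
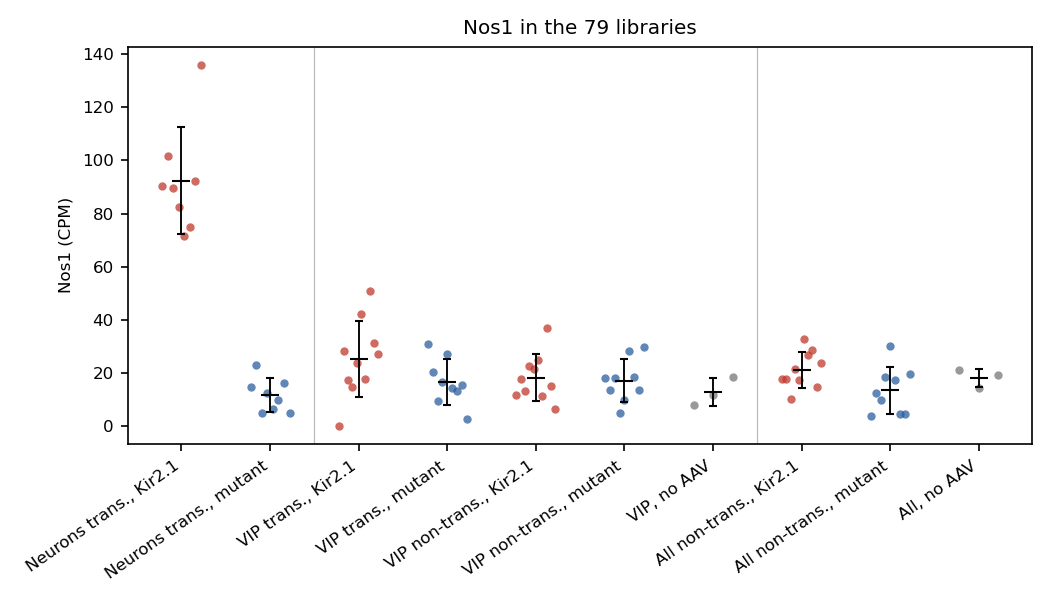
Nos1 in CPM (y axis) in each of the 79 libraries, by group (x axis; trans., transduced); points are libraries, dashes and bars are the mean ± SD, and colours mark Kir2.1 (red), mutant (blue) and no AAV (grey). The 8 Kir2.1 neuron libraries sit at 71.7 to 136 CPM, and the other 71 libraries at 0 to 50.9 CPM.

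The 9 other genes on the list for the Nos1 class of interneurons all overlapped in range between the 2 neuron groups. Their sum was at 243 to 558 CPM in Kir2.1 neurons (median 279) and at 241 to 367 CPM in mutant neurons (median 293). Most of it came from Satb1 (means of 128 against 146 CPM) and Calb1 (99.6 against 81.7 CPM), which were also at means of 112 to 117 and 46.4 to 58.2 CPM in the groups of all nuclei. Tacr1, a receptor for substance P, was at 5.99 ± 5.34 against 2.35 ± 2.91 CPM (SD, n = 8 each). Lhx6 (means of 3.79 against 5.52 CPM), Crhbp (3.28 against 4.76) and Elfn1 (8.98 against 9.96) were lower with Kir2.1. Apart from Sst, Npy and Chodl, the genes of this list were named after their values were seen. Sst was at 33.2 ± 40.3 CPM against 20.2 ± 13.5, and Npy at 40.5 ± 61.3 against 32.2 ± 17.1 (SD, n = 8 each), with wide overlap. Chodl, the most selective marker of the class, had counts in 5 of 8 Kir2.1 libraries, up to 6.52 CPM, and was at 0 in all 8 mutant libraries. In the 3 Kir2.1 libraries with Chodl at 0, Nos1 was at 74.8, 82.6 and 90.5 CPM, against 71.7 to 136 CPM in the 5 with Chodl counts. Nos1 was highest in Kir2.1 libraries 10 and 4, at 136 and 101.8 CPM. They also had the most Sst (90.6 and 103.4 CPM), Npy (103.4 and 167.7) and Chodl (3.57 and 6.52). In the other Kir2.1 libraries Sst was at most 28.6 CPM and Npy at most 15.1 CPM. The part of the Nos1 class of interneurons in the values of Nos1 was not tested.

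Sums of some other cell-type markers differed between the neuron groups, and a sum mostly follows its most abundant genes. The summed pan-GABAergic markers were at 69.4 to 842 CPM in Kir2.1 neurons (median 357) and at 421 to 1147 CPM in mutant neurons (median 928); Gad1, which makes GABA, was at 37.0 ± 10.3 against 74.5 ± 20.9 CPM. Summed astrocyte markers were at 223 to 350 CPM against 447 to 539 CPM, without overlap. Summed Lamp5 and Ndnf interneuron markers were at 95.6 to 187 CPM against 224 to 439 CPM, also without overlap. Summed VIP markers were at 67.1 to 461 CPM (median 213) against 268 to 727 CPM (median 450). Summed Pvalb markers (medians of 574.5 and 612 CPM), oligodendrocyte markers (259 and 252) and microglia markers (175 and 156) overlapped. Summed excitatory markers were at 2001 to 2718 CPM against 2500 to 2998 CPM, and Slc17a7 at 67.8 ± 26.9 against 66.1 ± 16.4 CPM. Gene by gene (edgeR, adjusted p under 0.05), 2 of 7 astrocyte, 3 of 7 pan-GABAergic and 1 of 5 VIP markers tested were lower with Kir2.1. Of the Lamp5 and Ndnf markers 3 of 4 were lower, and 0 in these lists were higher. Of 15 excitatory markers 1 was higher and 0 lower. Over all genes 5.63% passed. How often sums of other genes lack overlap was not computed, so nothing is read from it. The part of these markers in the difference of Nos1 was not tested.

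In the populations whose values did not choose the gene, no difference of Nos1 between the vectors passed the threshold, an adjusted p of 0.05 (edgeR quasi-likelihood, Benjamini-Hochberg over all genes tested). In transduced VIP nuclei Nos1 was at 0 to 50.9 CPM with Kir2.1 (median 25.2) and at 2.36 to 30.7 CPM with the mutant (median 15.4). The ranges overlapped, 3 of 10 Kir2.1 libraries lay above all mutant ones, and the difference was 0.62 ± 0.43 on the log2 scale (SE; adjusted p = 0.688). In all non-transduced nuclei the difference was 0.66 ± 0.34 (adjusted p = 0.858), with a 95% interval from -0.01 to 1.34. In non-transduced VIP nuclei it was 0.09 ± 0.43 (adjusted p = 0.987, interval -0.75 to 0.93). Whether the populations differ was not tested, because the neuron contrast chose the gene.

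**Figure D2:**
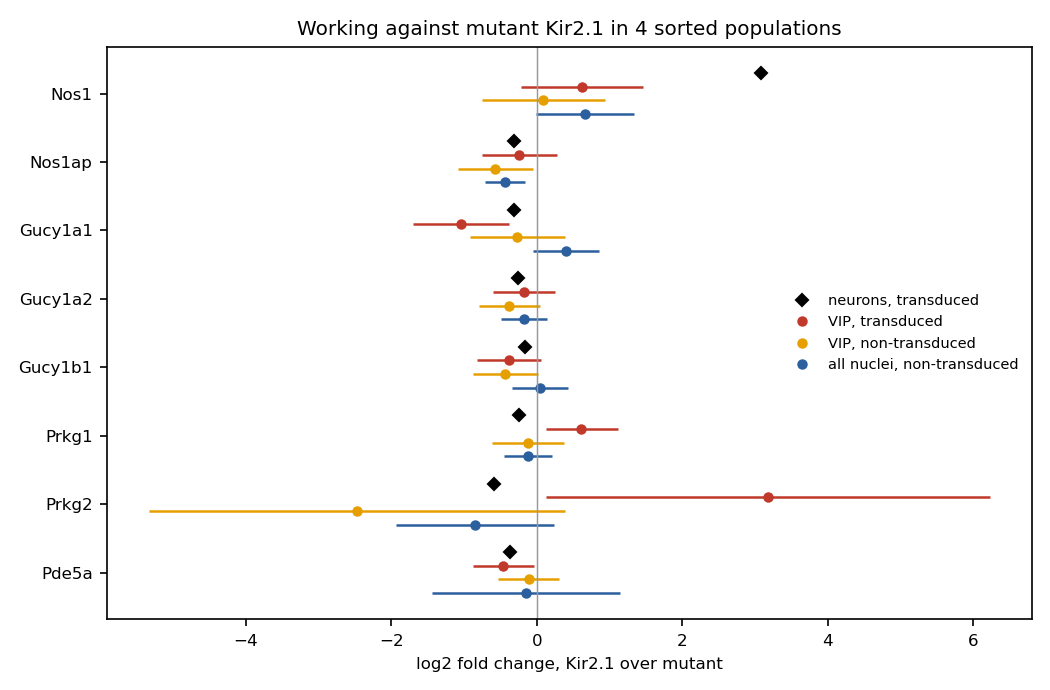
Log2 fold change of Kir2.1 over mutant (x axis) for the 8 genes (y axis) in 4 sorted populations. Circles carry 95% intervals from the edgeR fit; black diamonds are the transduced neurons, drawn with no interval because that contrast chose Nos1. The diamond of Nos1 lies at 3.08 and those of the other 7 genes between -0.59 and -0.16; the interval of Prkg2 in transduced VIP nuclei runs from 0.12 to 6.23.

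Nos1ap, the adaptor that ties Nos1 to other proteins at the membrane, was far higher in neurons and in all nuclei than in VIP nuclei. It was at 181 to 453 CPM over the 22 libraries of all nuclei that were non-transduced or uninjected (median 283) and at 23.9 to 131 CPM over the 22 VIP libraries of the same kinds (median 57.3), and these ranges did not overlap. Uninjected mice alone gave 225, 232 and 311 CPM in all nuclei and 50.3, 60.5 and 52.1 CPM in VIP nuclei. In transduced neurons it was at 205 to 395 CPM with Kir2.1 (median 231) and at 275 to 437 CPM with the mutant (median 309); 7 of the 8 Kir2.1 libraries lay below every mutant library, and the eighth, number 6, was at 395 CPM. A similar order appeared in all non-transduced nuclei, with 181 to 372 CPM for Kir2.1 (median 224) and 267 to 453 CPM for the mutant (median 334), where 7 of 10 Kir2.1 libraries lay below all mutant ones. That difference, -0.44 ± 0.14 on the log2 scale (SE), did not pass (edgeR adjusted p = 0.57, unadjusted 0.00396), and mice without AAV, at 256 ± 47.5 CPM (n = 3), were near the Kir2.1 mean of 246 ± 62.2.

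Of the cyclase subunits, Gucy1a1 encodes the alpha1 chain, Gucy1a2 the alpha2 chain and Gucy1b1 the beta1 chain that both alphas pair with. All 3 were highest in mutant neurons and lower in the VIP groups. Gucy1b1 was at 89.1 to 108 CPM in mutant neurons (median 103) and at 60.1 to 105 CPM in Kir2.1 neurons (median 87.1), and 5 of 8 Kir2.1 libraries lay below all mutant ones. Gucy1a1 was at 73.1 to 119 CPM (median 93.3) and 57.9 to 86.9 CPM (median 71.9) in the same groups, and Gucy1a2 at 162 to 297 CPM (median 236) and 148 to 266 CPM (median 181). The fitted differences there were -0.32 for Gucy1a1, -0.26 for Gucy1a2 and -0.16 for Gucy1b1 on the log2 scale, all with overlapping ranges.

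Gucy1a1 had its lowest mean in transduced VIP nuclei with Kir2.1. It was at 2.09 to 34.4 CPM there (median 14.0), at 16.01 to 51.7 CPM in mutant transduced VIP nuclei (median 30.9) and at 7.98 to 48.6 CPM in non-transduced VIP nuclei with Kir2.1 (median 32.1). In these groups 5 of 10 Kir2.1 transduced libraries lay below all mutant transduced ones, and the ranges overlapped. The difference between vectors was -1.04 ± 0.34 on the log2 scale (SE; edgeR adjusted p = 0.117, unadjusted 0.00338), and that between transduced and non-transduced Kir2.1 nuclei was -0.96 ± 0.33 (adjusted p = 0.172). Both missed the threshold. Without number 1 of the Kir2.1 transduced VIP libraries, the first was -1.25 with an adjusted p of 0.046. Between vectors its partner chain Gucy1b1 was at -0.38 ± 0.22 (edgeR adjusted p = 0.573) and Gucy1a2 at -0.18 ± 0.22 (adjusted p = 0.884); whether the 3 chains differ from each other was not tested.

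Prkg1, the kinase that cGMP activates in the cytosol of many neurons, had the largest counts of the 8 genes in neurons and in all nuclei. It was at 307 to 848 CPM over the 22 libraries of all nuclei (median 527) and at 27.0 to 139 CPM over the 22 VIP libraries (median 50.7). Transduced neurons held 537 to 1159 CPM with Kir2.1 (median 557) and 566 to 1236 CPM with the mutant (median 728); the ranges overlapped, and the fitted difference was -0.25 on the log2 scale. In transduced VIP nuclei, Prkg1 was at 29.0 to 131 CPM with Kir2.1 (median 86.1) and at 30.2 to 66.0 CPM with the mutant (median 53.8). There 7 of 10 Kir2.1 libraries lay above every mutant library, yet the difference of 0.61 ± 0.25 (SE) did not pass the threshold (edgeR adjusted p = 0.283, unadjusted 0.0191). In the same libraries the summed excitatory markers were at 929 to 1504 CPM with Kir2.1 and at 549 to 693 CPM with the mutant, and the summed VIP markers at 7545 to 12900 against 18110 to 21110 CPM; their part in the values of Prkg1 and Gucy1a1 was not tested.

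RefSeq gives Prkg1 a pair of starts. The 250 bases before each are printed, 5′ to 3′ on the minus strand, because the level of Prkg1 set VIP nuclei apart from neurons and from all nuclei; GC boxes (GGGCGG on either strand) are in capitals.
Prkg1, chr19:31765034-31765283, minus strand: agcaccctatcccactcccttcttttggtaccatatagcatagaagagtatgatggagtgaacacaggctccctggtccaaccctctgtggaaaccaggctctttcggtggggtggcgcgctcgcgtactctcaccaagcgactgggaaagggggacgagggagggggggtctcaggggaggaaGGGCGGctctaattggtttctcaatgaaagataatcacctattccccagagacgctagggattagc
Prkg1, chr19:31664371-31664620, minus strand: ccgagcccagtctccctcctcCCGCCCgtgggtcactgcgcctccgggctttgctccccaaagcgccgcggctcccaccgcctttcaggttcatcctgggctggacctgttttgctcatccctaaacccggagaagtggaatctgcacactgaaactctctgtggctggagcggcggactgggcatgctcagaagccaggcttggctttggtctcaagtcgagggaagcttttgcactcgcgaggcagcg
Each window held 1 GC box, a motif present in 32.7% of the 32851 RefSeq windows of this length. Neither held a CRE (TGACGTCA; 1.55% of all windows; all motifs were searched on both strands), its core TGACG (17.8%, which includes every full CRE) or an AP-1 motif (TGANTCA; 6.75%). RefSeq windows were found for 7 of the 8 genes, 10 windows in all, and none of the 10 held a full CRE. The core was found in 1 window each of Gucy1a2, Gucy1b1 and the intron before the RefSeq start of Nos1, and the AP-1 motif in 1 window of Nos1ap. These matches describe letters and are not binding sites.

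Prkg2, a kinase anchored to membranes, was nearly absent from VIP nuclei. Uninjected VIP libraries held 0 counts in all 3, and uninjected libraries of all nuclei held 6.63, 5.40 and 19.8 CPM. Against a floor of 3 counts over the uninjected VIP group, Prkg2 was at least 61.8-fold higher in all nuclei of these mice. The floor covers counting error only, and the bound holds for the uninjected libraries alone. Over the 22 libraries of each population the means were 0.555 CPM in VIP and 11.4 CPM in all nuclei, and the fitted difference was 26.1-fold. In the other VIP groups 7 of 10, 6 of 9, 7 of 10 and 5 of 9 libraries were at 0 (Kir2.1 transduced, mutant transduced, Kir2.1 non-transduced and mutant non-transduced). Of the 100 counts in transduced VIP nuclei with Kir2.1, 81 came from library 8, the library with the highest Nos1 among VIP nuclei. The fitted difference between vectors in those nuclei, 3.18 ± 1.56 on the log2 scale (SE; edgeR adjusted p = 0.432), rests on such counts. In neurons Prkg2 was at 4.26 to 26.8 CPM with Kir2.1 (median 12.8) and at 10.1 to 33.7 CPM with the mutant (median 23.8), with overlap.

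Pde5a, which hydrolyses cGMP, had the opposite distribution to the kinases. Over the 22 VIP libraries that were non-transduced or uninjected it was at 72.8 to 246 CPM (median 115), and over the 22 libraries of all nuclei at 0 to 21.7 CPM (median 5.05), with no overlap. Uninjected VIP nuclei held 110, 85.4 and 113 CPM, and uninjected all nuclei 10.7, 4.61 and 2.60 CPM. In transduced VIP nuclei it was at 42.4 to 174 CPM with Kir2.1 (median 74.6) and at 85.5 to 166 CPM with the mutant (median 117), and 6 of 10 Kir2.1 libraries lay below all mutant ones. The difference between vectors was -0.46 ± 0.21 on the log2 scale (SE; edgeR adjusted p = 0.39), and that between transduced and non-transduced Kir2.1 nuclei -0.50 ± 0.21 (adjusted p = 0.333). With those libraries left out whose profiles stand apart, these became -0.77 (adjusted p = 0.0395) and -0.85 (adjusted p = 0.0232), past the threshold; that alternative was chosen after seeing the data. The summed VIP markers, lower with Kir2.1 in these transduced libraries without overlap (7545 to 12900 against 18110 to 21110 CPM with the mutant), were at 13560 to 22490 CPM in non-transduced Kir2.1 VIP nuclei. The summed excitatory markers were at 929 to 1504 CPM, 549 to 693 CPM and 561 to 843 CPM in the same order, and the part of either in the values of Pde5a was not tested.

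**Figure D3:**
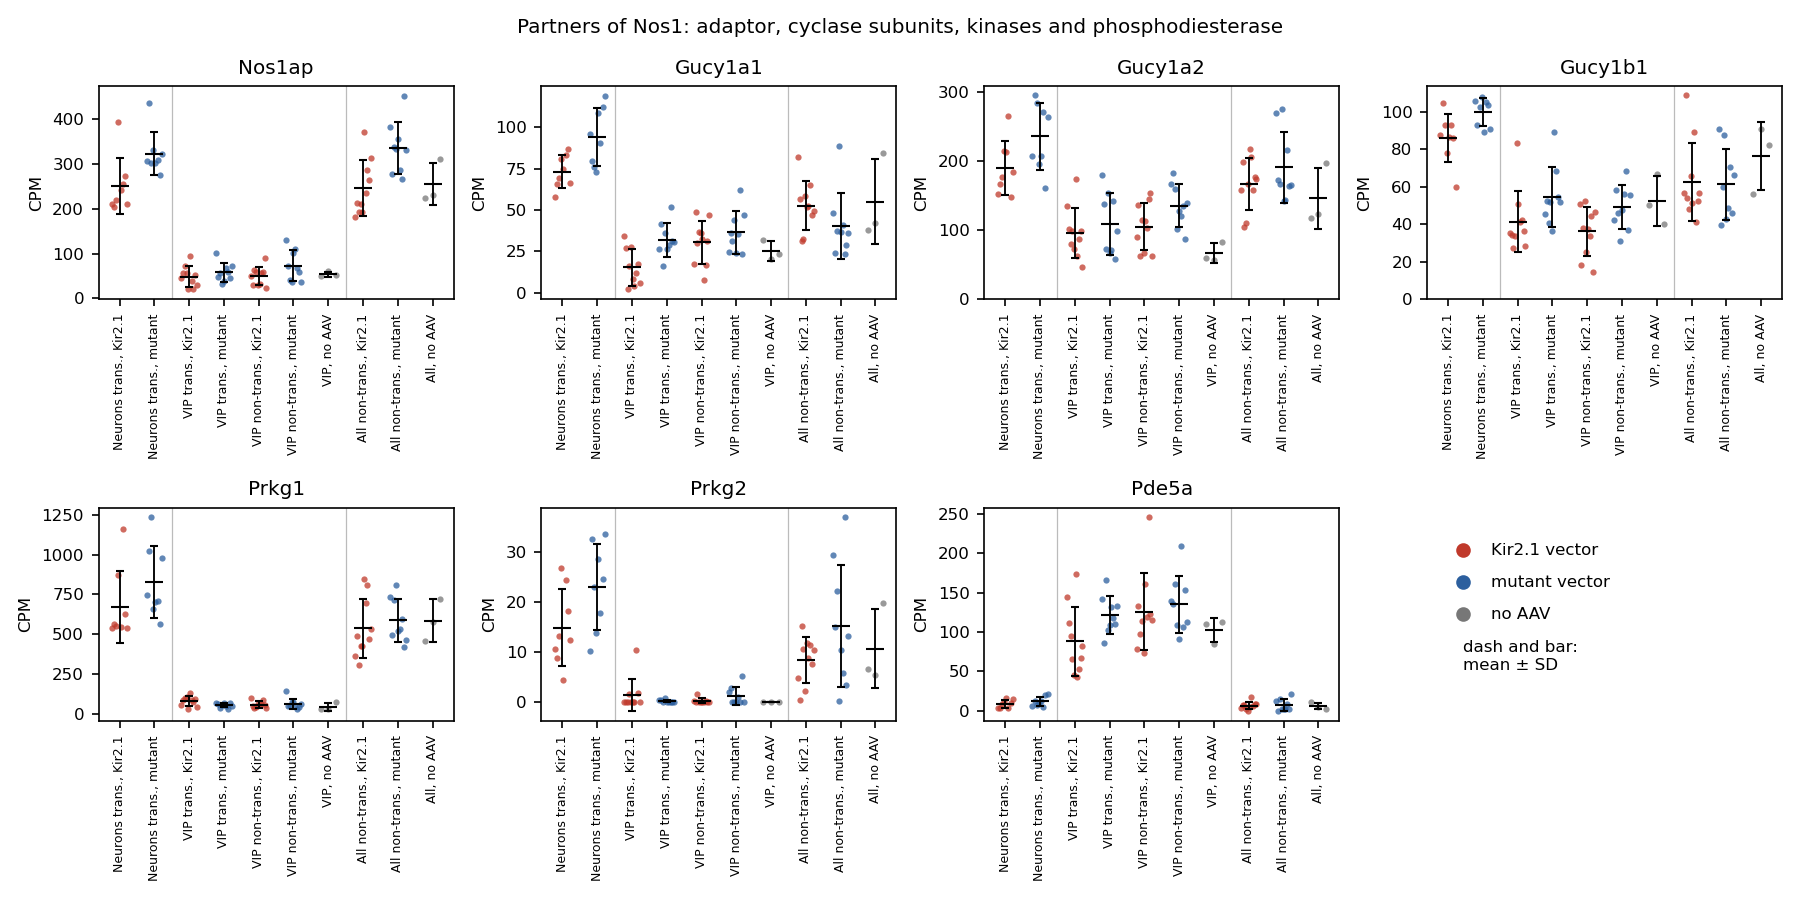
CPM (y axes) of the 7 partner genes in each library, by group (x axes; trans., transduced); points are libraries, dashes and bars the mean ± SD, and colours the vector. Nos1ap, Prkg1 and Prkg2 are low in the 5 VIP groups between the grey lines, and Pde5a is high only there, from 42.4 CPM upward against at most 21.8 CPM elsewhere.

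The test across populations put numbers on these distributions. In the 44 non-transduced and uninjected libraries, with the vector group as a term, 7 of the 8 genes differed between VIP nuclei and all nuclei, 1 higher and 6 lower, where 32.6% of all genes tested passed (13.2% higher, 19.4% lower). Pde5a was higher in VIP nuclei by 4.22 ± 0.30 on the log2 scale (SE; edgeR adjusted p = 2.92e-17). Prkg1 was lower, at -3.32 ± 0.16 (adjusted p = 1.48e-23), as was Nos1ap, at -2.25 ± 0.14 (2.9e-19), and Prkg2, at -4.70 ± 0.65 (4.06e-08). The cyclase chains were lower by less: -0.67 ± 0.12 for Gucy1a2 (adjusted p = 8.47e-06), -0.57 ± 0.14 for Gucy1b1 (0.00107) and -0.58 ± 0.18 for Gucy1a1 (0.00718). Nos1 was the gene that did not pass, at -0.03 ± 0.23 (adjusted p = 0.939), with a 95% interval from -0.48 to 0.42.

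Transduced nuclei gave the same directions for the 7 genes. Between VIP nuclei and neurons that both carried the mutant vector, 7 of 8 genes passed, 1 higher and 6 lower, where 17.9% of all genes passed (7% higher, 10.9% lower). Pde5a was higher in VIP nuclei by 3.33 ± 0.34 on the log2 scale (SE; edgeR adjusted p = 1.54e-10), and Prkg1 lower at -4.01 ± 0.24 (3.28e-17). Gucy1a1 stood at -1.59 ± 0.31 (adjusted p = 0.000119), and Nos1 at 0.50 ± 0.43 (0.516). The ranges of the 9 VIP and 8 neuron libraries did not overlap for 6 of the 7 genes past the threshold here. Gucy1a2 overlapped, at 58.2 to 180 CPM in VIP nuclei and 162 to 297 CPM in neurons. The share of all genes without overlap was not computed, so nothing is read from this count. These contrasts compare sorts: all 11 VIP markers tested were higher and all 15 excitatory and 10 oligodendrocyte markers lower in VIP nuclei than in all nuclei, and the part of each cell type in the members' values was not tested.

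**Figure D4:**
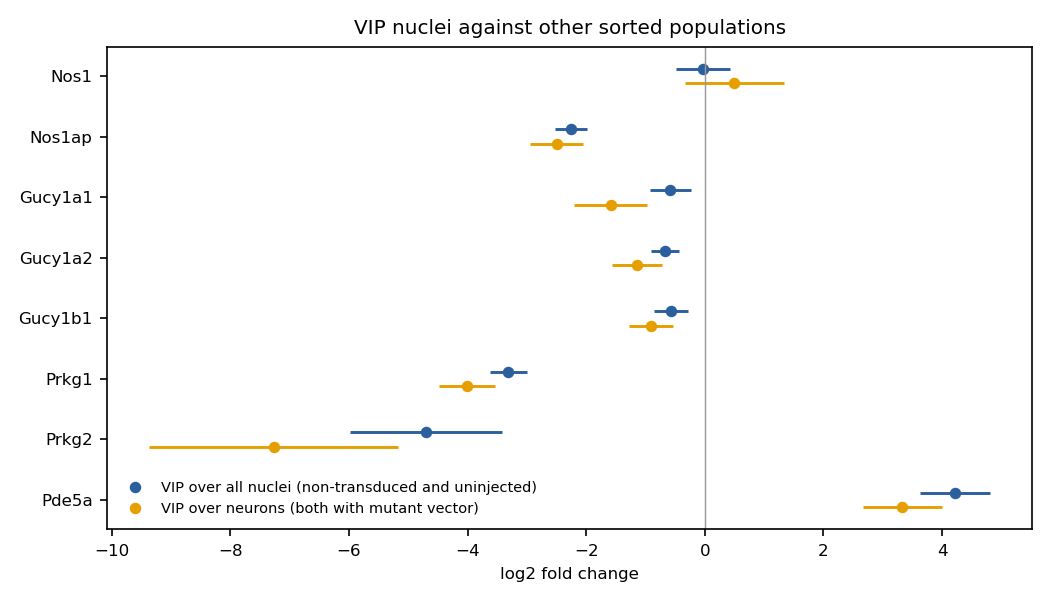
Log2 fold change (x axis) of the 8 genes (y axis) in VIP nuclei over all nuclei, 44 non-transduced and uninjected libraries, and over neurons, 17 libraries with the mutant vector; bars are 95% intervals from the edgeR fits. Pde5a lies at 4.22 and 3.33, Nos1 spans 0 in both, and the other 6 genes lie below 0.

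Per kb of exon, which allows levels of different genes to be compared if only exonic reads were counted, the order of the genes changed with the population. In all nuclei of uninjected mice, Prkg1 led at 53.9 ± 12.3 CPM per kb (SD, n = 3), then Nos1ap at 35.3 ± 6.56, Gucy1a2 at 22.1 ± 6.67 and Gucy1b1 at 19.5 ± 4.66. Gucy1a1 followed at 7.90 ± 3.67, and Prkg2 (1.97 ± 1.48), Nos1 (1.62 ± 0.315) and Pde5a (0.607 ± 0.429) were lowest. In VIP nuclei of the same mice, Gucy1b1 (13.4 ± 3.44), Pde5a (10.5 ± 1.55) and Gucy1a2 (10.0 ± 2.19) lay within each other's spread at the top, and Prkg1 was at 3.95 ± 2.44. In Kir2.1 neurons Nos1 reached 8.29 ± 1.80 CPM per kb, against 10.5 ± 1.44 for Gucy1a1 (n = 8 each). Whether intronic reads were counted is not given in the sources used here, and the genes differ in how much intron they have. Prkg1 spans 1200545 bases with 10861 of exon, Gucy1a2 361959 with 6650, Nos1ap 287194 with 7249 and Gucy1b1 42684 with 3927. The order of genes within a population is therefore open to this.

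The vector and transduction comparisons within VIP nuclei called none of the 8 genes. Between Kir2.1 and mutant, 0 of 8 passed in transduced VIP nuclei, where 1.39% of all genes passed (edgeR; 4 members at an unadjusted p under 0.05; DESeq2 0 members). In non-transduced VIP nuclei 0 of 8 passed, against 0% of all genes (1 member unadjusted, DESeq2 0), and in all non-transduced nuclei 0 of 8 against 0% (1 unadjusted, DESeq2 0). Transduced against non-transduced VIP nuclei gave 0 of 8 with Kir2.1, against 0.769% of all genes (3 unadjusted, DESeq2 0), and 0 of 8 with the mutant, against 0.00943% (0 unadjusted, DESeq2 0). The interaction of vector and transduction gave 0 of 8 against 0.401% (2 unadjusted, DESeq2 0), with Prkg1 at 0.74 ± 0.36 (adjusted p = 0.618) and Prkg2 at 5.65 ± 2.13 (adjusted p = 0.356) on the log2 scale. Over all genes, 2378 of 21207 had an unadjusted p under 0.05 between vectors in transduced VIP nuclei, and 1843 in non-transduced ones. In all non-transduced nuclei it was 1289 of 21362. For transduction it was 1973 of 21207 with Kir2.1 and 1110 with the mutant, and for the interaction 1648. These comparisons share libraries, so their values for 1 gene are not independent.

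Injection itself was compared with no AAV over non-transduced nuclei. In VIP nuclei 0 of 8 genes passed, against 0.00943% of all genes (edgeR; 1 member unadjusted, DESeq2 0), with Gucy1a2 at 0.84 ± 0.31 on the log2 scale (SE; adjusted p = 0.465). Its uninjected VIP libraries were at 60.1, 56.6 and 83.4 CPM, and its injected non-transduced ones at 62.5 to 183 CPM. In all nuclei 0 of 8 passed, against 0.211% (0 unadjusted, DESeq2 0), and the members' differences ran from -0.31 for Gucy1b1 to 0.28 for Gucy1a2. Over all genes, 2095 of 21207 in VIP nuclei and 2289 of 21362 in all nuclei had an unadjusted p under 0.05. All 6 uninjected libraries are labelled male.

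A list of 64 other genes of the pathway (arginine supply and NO synthesis, anchoring of Nos1, removal of NO, other guanylyl cyclases, other cGMP phosphodiesterases, and cGMP targets) was read in the same fits. In transduced VIP nuclei 53 of the 64 were tested and 2 passed between vectors, 1 higher and 1 lower, where 1.39% of all genes passed, with a median of 0.03 on the log2 scale against 0.04 over all genes tested. Asl, which releases arginine from argininosuccinate, rose with Kir2.1, from 43.8 ± 18.7 CPM (13.6 to 73.3, n = 9) to 94.6 ± 42.0 CPM (27.5 to 149, n = 10). The ranges overlapped, and the difference was 1.13 ± 0.29 (SE; edgeR adjusted p = 0.032). This call was lost without any 1 of 8 of the 19 libraries (numbers 4, 5, 7 and 10 with Kir2.1 and 1, 3, 6 and 8 with the mutant), with adjusted p-values from 0.00703 to 0.0755 over the 19.

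Pde10a, a phosphodiesterase that hydrolyses cAMP and cGMP, was the gene that fell there, and it belongs to what was known of these data when the list was made. It was at 99.7 to 316 CPM in Kir2.1 transduced VIP nuclei and at 432 to 1063 CPM in mutant ones, without overlap, and the difference was -2.06 ± 0.23 on the log2 scale (SE; edgeR adjusted p = 2.88e-08). Non-transduced VIP nuclei were at 325 to 1002 CPM with Kir2.1, which gave -1.81 ± 0.23 within the vector (adjusted p = 4.13e-07), and the interaction was -1.96 ± 0.32 (adjusted p = 0.0007). Ass1, which makes the argininosuccinate that Asl splits, was at 10.8 to 40.7 CPM in transduced and 3.48 to 22.1 CPM in non-transduced VIP nuclei with Kir2.1. It rose by 1.11 ± 0.28 (adjusted p = 0.0443), a call lost without any 1 of 15 of the 20 libraries (adjusted p up to 0.0858), with the replicate number as a block (0.0689), with the sex label as a term (0.0522) and with no low-count filter (0.0593). By edgeR no other listed gene passed in the comparisons within VIP nuclei. Of all genes, 0.769% passed for transduction with Kir2.1 and 0.401% for the interaction. Unadjusted, 10 of 53 listed genes had an edgeR p under 0.05 between vectors in transduced VIP nuclei, against 2378 of 21207 genes. For transduction it was 14 of 53 with Kir2.1 (1973 of 21207) and 4 of 53 with the mutant (1110). For the interaction it was 10 of 53 (1648). The list was not tested as a set. Between vectors 0 passed in non-transduced VIP nuclei, where 4 of 53 had an unadjusted p under 0.05, against 1843 of 21207 genes. In all non-transduced nuclei 0 passed (DESeq2 0), with 3 of 56 unadjusted against 1289 of 21362. Between injected and uninjected mice 0 passed in VIP nuclei (DESeq2 0), with 7 of 53 unadjusted against 2095 of 21207. In all nuclei 0 passed (DESeq2 0), with 9 of 56 unadjusted against 2289 of 21362. DESeq2 called 1, Rasd1, between vectors in non-transduced VIP nuclei (adjusted p = 0.0403), and edgeR with no low-count filter called 1, Cngb1, for injection in VIP nuclei (adjusted p = 0.0285); both are named because they passed there.

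In the neuron contrast that chose Nos1, the listed genes are again given as a description. Pde10a was at 140 to 331 CPM in Kir2.1 neurons and 447 to 1016 CPM in mutant neurons. Asl had means of 40.4 ± 21.5 against 13.6 ± 11.0 CPM. Kcnma1, a potassium channel that the Prkg kinases can modulate, was at 768 to 1310 CPM against 1505 to 1999 CPM, and Ddah1, which clears a natural inhibitor of NO synthases, at 3.00 ± 2.63 against 12.8 ± 6.68 CPM. Of the 45 listed genes tested by edgeR, 1 was higher and 3 lower at the threshold, where 5.63% of all genes passed. With DESeq2 8 listed genes passed, where 1454 of 20430 genes did, and nothing is read from these counts. Ddah1 no longer passed by edgeR with the replicate number, shared across vectors, as a block (adjusted p = 0.0685). It also did not pass without any 1 of 4 of the 16 libraries (numbers 4 and 5 with Kir2.1, 2 and 8 with the mutant, adjusted p up to 0.0722).

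**Figure D5:**
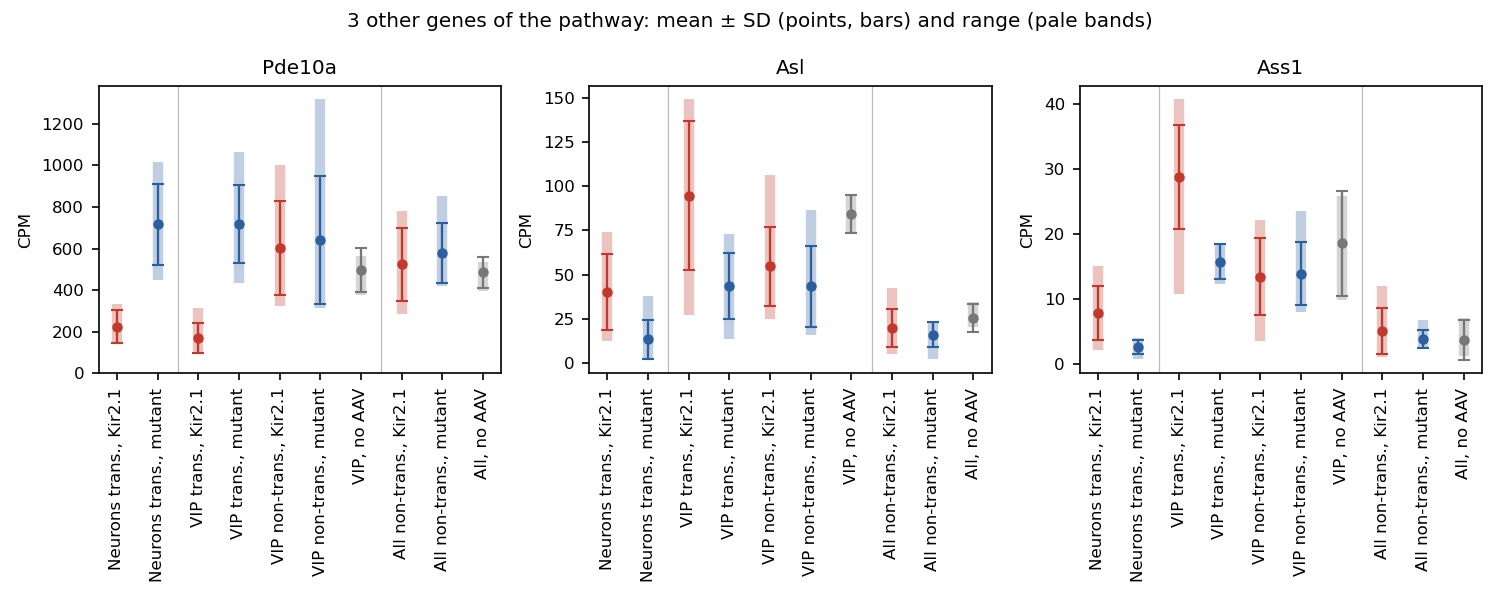
CPM (y axes) of Pde10a, Asl and Ass1 in the 10 groups (x axes; trans., transduced); points and bars are the mean ± SD, pale bands the range over libraries, and colours the vector (red Kir2.1, blue mutant, grey none). Pde10a is lowest in the groups transduced with Kir2.1, at means of 224 and 171 CPM. Group means of Asl and Ass1 are higher in VIP nuclei than in neurons and all nuclei. For Asl the Kir2.1 neurons, at 40.4 ± 21.5 CPM, lie close to mutant VIP nuclei. These are at 43.8 ± 18.7 CPM (transduced) and 43.5 ± 23.0 CPM (non-transduced).

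Between populations the listed genes differed in both directions. In VIP nuclei against all nuclei, 54 of 64 were tested, 12 were higher and 10 lower, where 32.6% of all genes passed (13.2% higher, 19.4% lower; edgeR; median 0.15 on the log2 scale against -0.03 over all genes). Of the 18 tested genes of arginine supply and NO synthesis 5 were higher and 1 lower, of the 9 phosphodiesterases 4 higher and 1 lower, and of the 7 cGMP targets 0 higher and 4 lower. Itpr1, a calcium release channel, fell furthest among the named ones, at -5.03 ± 0.23 (adjusted p = 6.32e-25), then Pde1a, a calcium-dependent phosphodiesterase, at -3.63 ± 0.19 (4.45e-22) and Kcnma1 at -1.59 ± 0.10 (1.15e-19). The arginine transporter Slc7a3 was higher at 2.67 ± 0.28 (2.28e-11), and so was Pde1c, at 2.08 ± 0.23 (4.25e-11). Between VIP nuclei and neurons with the mutant vector, 8 of 52 were higher and 7 lower, where 17.9% of all genes passed, led by Itpr1 at -5.26 ± 0.28, Pde1a at -3.89 ± 0.29, Kcnma1 at -2.12 ± 0.16, Slc7a3 at 2.45 ± 0.31 and the natriuretic peptide receptor Npr3 at -8.39 ± 0.79, whose VIP group means were at most 0.838 CPM.

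Across the 79 libraries, the genes whose log2 CPM followed Nos1 most closely, of 24343 ranked, were Zfp566 (Pearson r = 0.597), Ahdc1 (0.55), Dexi (0.549), 4921511C10Rik (0.528) and Gm13562 (0.524). Without the Kir2.1 neurons these were 0.556, 0.488, 0.481, 0.428 and 0.524 over 71 libraries. Within the 41 VIP libraries they were 0.696, 0.683, 0.63, 0.636 and 0.74. Over the 38 neuron and all-nuclei libraries they were lower, at 0.486, 0.371, 0.469, 0.454 and 0.165. Those nearest to Gucy1b1 were Cntn3 (0.73), Kcnh5 (0.715), Pdzrn3 (0.699), Mef2c (0.696) and Spats2l (0.692), and within the 41 VIP libraries these fell to 0.304, 0.454, 0.235, 0.122 and 0.281. Among the 8 genes themselves, Gucy1a2 with Prkg1 reached 0.771 and Gucy1a1 with Gucy1b1 0.663 over the 38 neuron and all-nuclei libraries. The r of Nos1 with its partners ran from -0.341 (Nos1ap) to 0.227 (Gucy1a1) over those 38 libraries and from -0.202 to 0.231 over the 41 VIP libraries. The libraries share groups and differ in depth, so these values describe likeness and carry no test.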

How the data were processed

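Counts per gene for 79 libraries of sorted nuclei were used as the authors deposited them, as whole raw counts. Per the submitters' processing notes, the build was mm10 and the tools included cutadapt 1.18, STAR 2.5.3a and HOMER 4.9.1; annotation, strand and counting rules are not given in the sources used here. Symbols came from GENCODE vM21, which matched 55154 of 55335 identifiers; the other 181 held 0.0264% of counts. The 8 members, the lists of pathway and marker genes and the comparisons were chosen with earlier results of these data known. Members were named in every comparison; other pathway genes were named if past the threshold between vectors in transduced nuclei, or among the 5 with the smallest adjusted p elsewhere.

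The quasi-likelihood F test of edgeR 4.0.16 (R 4.3.3; two-sided; TMM scaling; genes kept by filterByExpr at counts of 10 or more and totals of 15 or more) was used in separate fits of the 41 VIP libraries, the 22 of all nuclei, the 16 of neurons, 44 for VIP against all nuclei (vector group as a term) and 35 transduced ones. P-values were adjusted by Benjamini-Hochberg over all genes tested, with a threshold of 0.05. SE is the log2 fold change over the root of F. The model was also run on simulated counts, drawn as independent libraries from the fitted spread. Such counts cannot check whether same-numbered libraries are linked, and nothing is read from them. Levels are CPM on 1 TMM scale over the 79 libraries; levels per kb use the union of vM21 exons. Likeness used log2 CPM with a prior count of 2. Alternatives were DESeq2 1.42.0, RLE size factors, no low-count filter, the replicate number as a block, sex as a term, libraries left out and plain CPM. The block was set within a vector for transduction, interaction and populations, and across vectors for the other comparisons. Libraries held 3219899 to 9267246 counts; genes at a few CPM rest on few counts. Promoter sequences are from RefSeq (GRCm38.p6).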

Additional observations from a re-analysis of the deposited data

Results flagged for a closer look

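In 11 of 64 sets of libraries (1 gene in 1 group of 8 to 10), 1 library lay far from the rest. The gap is one that chance gives in about 1 in 20 sets of normally distributed values. CPM need not be so distributed, and Prkg2 in VIP nuclei, with most libraries at 0, is not, so that rate is only a guide. In neurons, Nos1 was at 136 CPM in Kir2.1 library 10, against a median of 89.6 CPM in the other 7. Nos1ap was at 395.1 CPM in Kir2.1 library 6 (median of the others 220.1) and at 436.7 CPM in mutant library 3 (307.1). In all non-transduced nuclei, Gucy1a1 was at 88.5 CPM in mutant library 4 (36.3), and Pde5a at 17.1 CPM in Kir2.1 library 7 (5.49). In transduced VIP nuclei, Gucy1b1 was at 83.4 CPM in Kir2.1 library 5 (35.6). Prkg2 was at 10.4 CPM in Kir2.1 library 8, where the median of the others is 0, and at 0.617 CPM, 4 counts, in mutant library 4. In non-transduced VIP nuclei, Prkg1 was at 139 CPM in mutant library 1 (49.8), Prkg2 at 1.49 CPM in Kir2.1 library 3 (0), and Pde5a at 246 CPM in Kir2.1 library 8 (115). Of these libraries, Kir2.1 neuron library 10 and mutant non-transduced VIP library 1 also stand apart by their whole profile.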

How the results depend on the processing

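The number of members past the threshold was unchanged in all 11 comparisons under DESeq2, RLE size factors, no low-count filter, the replicate block and, in the 9 comparisons where it was run, either sex term. It became 1 instead of 0 between vectors in transduced VIP nuclei without the libraries that stand apart (Pde5a), and ran from 0 to 1 when libraries were left out in turn (Gucy1a1, without Kir2.1 library 1). It became 1 instead of 0 for transduced against non-transduced VIP nuclei with Kir2.1 without the libraries that stand apart (Pde5a). Libraries were not left out in turn in the 2 comparisons between populations.

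Directions reversed only for differences that did not pass. On the log2 scale, Prkg1 became 0.14 in non-transduced VIP nuclei between vectors, and Gucy1b1 -0.07 in the interaction, without the libraries that stand apart; Pde5a became 0.01 in all non-transduced nuclei with the sex label. Leaving libraries out in turn gave ranges that cross 0 as follows. Between vectors in non-transduced VIP nuclei, Nos1 ran from -0.10 to 0.23 and Prkg1 from -0.25 to 0.12. Between vectors in all non-transduced nuclei, Gucy1b1 ran from -0.08 to 0.13 and Pde5a from -0.44 to 0.27. Between transduced and non-transduced VIP nuclei, Nos1ap ran from -0.16 to 0.12 with Kir2.1, Nos1 from -0.19 to 0.11 and Prkg1 from -0.33 to 0.01 with the mutant. Gucy1b1 ran from -0.13 to 0.17 in the interaction. Between injected and uninjected mice in all nuclei, Nos1 ran from -0.28 to 0.00, Gucy1a1 from -0.47 to 0.17, Prkg1 from -0.22 to 0.10, Prkg2 from -0.25 to 0.87 and Pde5a from -0.18 to 0.91. The causes were not tested.

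Replicate numbers were not taken as pairs, since the labels tie no number to an animal and same-numbered libraries did not all deviate together, although all 22 sets sharing a vector and number held 1 sex by expression (the correlations ran from -0.05 to 0.382 between mutant VIP groups, where 8 of 9 libraries were nearest to their own number, and from 0.003 to 0.11 between Kir2.1 VIP groups, where 6 of 10 were). With the vector and number as the block, genes called rose from 163 to 259 for transduced against non-transduced VIP nuclei with Kir2.1 and from 2 to 10 with the mutant. With the number alone as the block, shared across vectors, genes called rose from 2 to 34 for injection in VIP nuclei. Nos1ap then became -0.01 between injected and uninjected mice in all nuclei. That block does not stand for an animal. For transduction with Kir2.1 the block took Ass1 past an adjusted p of 0.05, to 0.0689, and called 2 listed genes that did not pass without it, Itpr1 (0.0386) and Sntb1 (0.0275). DESeq2 also called Itpr1 there (0.00648), and Ass1 between vectors in transduced VIP nuclei (0.0222).

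Counts of all genes called also moved with DESeq2: 13 in place of 0 between vectors in non-transduced VIP nuclei, 3 in place of 0 in all non-transduced nuclei, 254 for transduction with Kir2.1, 76 and 439 (in place of 2 and 45) for injection in VIP and in all nuclei, and 1454 in place of 898 in neurons. With no low-count filter they were 719 in place of 85 for the interaction, 214 and 289 for injection, and 10897 in place of 6720 between VIP and all nuclei. Leaving libraries out gave 48 to 112 for the interaction, 0 to 4 and 23 to 60 for injection. Depth limits Prkg2 in VIP nuclei, where most libraries held no count.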
